A study of Homo sapiens with 6 samples.

Results

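DEK binding was examined at 10 histone chaperone genes, DAXX, ATRX, HIRA, CHAF1A, CHAF1B, ASF1A, ASF1B, NAP1L1, NPM1 and NCL, out of 20163 protein-coding genes annotated in GENCODE release 44 on GRCh37 (hg19). The genes were chosen by name for the function of their proteins. A DEK peak was counted for a gene when it overlapped the gene body extended by 10 kb on each side, which is called the window of the gene below. DEK is a chromatin protein that binds DNA and histones, and it was precipitated from U937 cells, an established human myeloid cell line, in 2 independent ChIP-seq experiments (DEK replicates 1 and 2). Histone H3 trimethylated at lysine 4 (H3K4me3), a mark of active transcription start sites (TSSs), was precipitated from the same line in 2 further experiments. The labels name no treatment, genotype or time for any sample, all cells being U937 grown in serum-supplemented medium, so the comparison is between antibodies and between repeats and not between conditions. The windows of the 10 genes held 3 of the 15017 peaks of DEK replicate 1 and 68 of the 152779 peaks of DEK replicate 2.

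Histone chaperones escort histones that are not bound to DNA and hand them to DNA or to other chaperones, so that nucleosomes can be built, opened and rebuilt. ATRX-DAXX and HIRA place the variant histone H3.3 outside DNA replication, at repeats and telomeres and at active genes, respectively. CHAF1A and CHAF1B are subunits of CAF-1, which places new H3-H4 behind the replication fork, and ASF1A and ASF1B pass H3-H4 on to CAF-1 and HIRA. NAP1L1 carries H2A-H2B, and nucleophosmin (NPM1) and nucleolin (NCL) are abundant nucleolar proteins that bind histones. DEK itself has been described as a chaperone of H3.3.

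The DEK lists differed in length by a ratio of 10.2. Replicate 1 held 988363 tags in its peaks, with a median of 47 tags and a median score of 68.8 per peak, where the score restates the peak caller's p-value as its negative log10 multiplied by 10. Replicate 2 held 4172422 tags, with a median of 20 tags and a median score of 78.3. Every replicate 1 peak carried a false discovery rate of 100%, whereas the rates of replicate 2 lay between 0.74% and 16.67%. The peak caller estimates this rate by exchanging precipitate and control. Whether the control used for replicate 1 differed in depth or was exchanged is not shown by the lists and was not tested, and it would bear on the replicate 1 peaks, scores and fold enrichments and on every count of sharing below. The study states a minimum of reads per sample but no total for each library, and the lists allow no test between samples, so counts for the 10 genes are set beside the same count over all protein-coding genes. H3K4me3 covered a TSS in both lists at 7 of 9 myeloid and pan-leukocyte marker genes chosen after the lists were examined, SPI1 and CD33 among them but not ELANE and LYZ, against 55.2% of all protein-coding genes, which does not identify the line.

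A peak of DEK replicate 1 was found at 2 of the 10 genes, ASF1A with 1 peak and NCL with 2, where 32.6% of all protein-coding genes had one. A peak of DEK replicate 2 was found at 9 of the 10 genes, where the share over all protein-coding genes was 90.9%. ATRX held 14 replicate 2 peaks, CHAF1A and CHAF1B 11 each, HIRA 9, ASF1B 8, NPM1 7, NCL 4, ASF1A 3 and NAP1L1 1. DAXX was the gene without a DEK peak in either list. Peaks of both lists lay in the windows of ASF1A and NCL, 2 of 10 genes, and 31.8% of all protein-coding genes had peaks of both. At the same 2 genes the peaks of both lists also overlapped by at least 1 bp, forming a shared interval, against 15.7% of all protein-coding genes. For replicate 2 peaks and shared intervals the shares at the 10 genes were close to the background; for replicate 1 they were lower, by about 1 gene in 10.

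**Figure D1:**
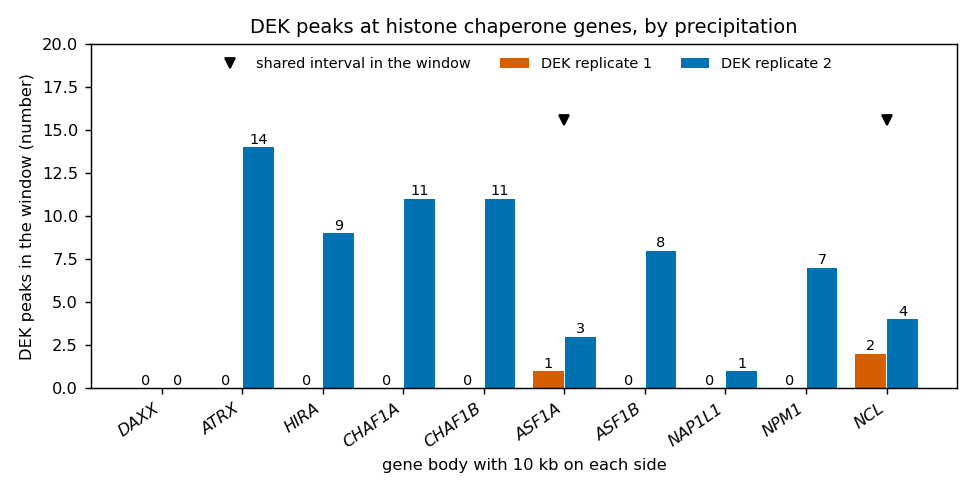
Number of DEK peaks (vertical axis) in the window of each histone chaperone gene (horizontal axis), with replicate 1 in orange and replicate 2 in blue; triangles mark genes with an interval shared by both lists. Replicate 1 bars stand at ASF1A (1) and NCL (2) only, replicate 2 bars range from 0 at DAXX to 14 at ATRX.

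H3K4me3 intervals of both lists covered a TSS of all 10 genes, against 55.2% of all protein-coding genes. At 9 of 10 genes they covered the canonical TSS, the start of the transcript that the annotation ranks first, against 49.1%. Since DEK peaks were more frequent at H3K4me3-marked genes, the 11126 protein-coding genes with H3K4me3 over a TSS in both lists are the closer background. Among these, 41.2% had a replicate 1 peak in the window, 97.3% a replicate 2 peak and 21.2% a shared interval. The 10 chaperone genes, with 2, 9 and 2, had fewer replicate 1 peaks than this background and a like share of shared intervals, but in a set of 10 such a difference rests on about 2 genes.

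**Figure D2:**
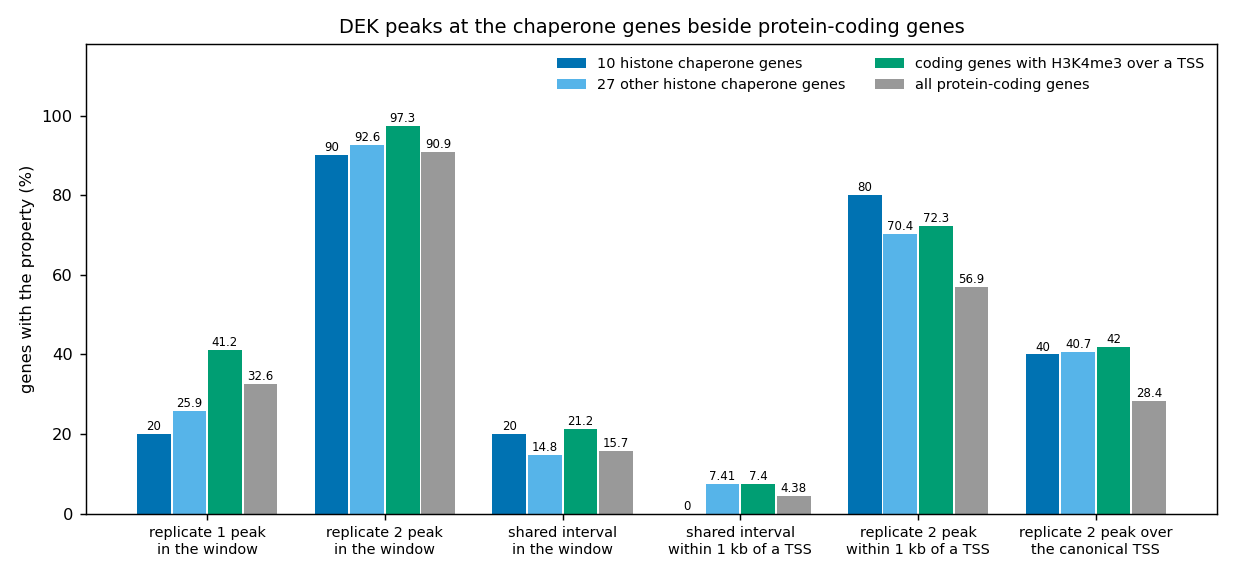
Percent of genes (vertical axis, from 0) with each DEK property (horizontal axis) among the 10 histone chaperone genes, 27 other histone chaperone genes, the protein-coding genes with H3K4me3 over a TSS in both lists, and all protein-coding genes. The bars of the 10 genes stand at 20% for replicate 1 peaks in the window, below the 32.6% and 41.2% of the coding gene sets, at 90% for replicate 2 peaks in the window, at 80% for replicate 2 peaks within 1 kb of a TSS, and at 0 for shared intervals within 1 kb of a TSS.

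The intervals shared by both DEK lists were 2 in number, and neither lay at a promoter. The NCL interval, chr2:232333675-232334316, was 642 bp long with its middle at -4733 bp from the nearest NCL TSS (negative values are upstream), in an intron of NCL transcripts that start further upstream. It was made of a replicate 1 peak of 1086 bp with 41 tags (95% Poisson interval 29.4 to 55.6) and a replicate 2 peak of 883 bp with 23 tags (14.6 to 34.5). The overlap took 59.1% of the replicate 1 peak and 72.7% of the replicate 2 peak. Both peaks were modest in their own list: the replicate 1 score of 53.91 exceeded 16.1% of that list, and the replicate 2 score of 74.5 exceeded 44.5%. The fold enrichments over the local background were 3.7 and 3.93.

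The ASF1A interval, chr6:119205944-119206466, was 523 bp long with its middle at -9111 bp from the ASF1A TSS, in an intron of the neighbouring MCM9 gene. The replicate 1 peak had 23 tags (14.6 to 34.5), scored 67.5 at a fold enrichment of 5.86, and lay entirely within the overlap. The replicate 2 peak was 653 bp wide with 22 tags (13.8 to 33.3), and scored 145.38 at a fold enrichment of 7.07. Its score exceeded 88.6% of the replicate 2 list, while the replicate 1 score exceeded 48.0% of the replicate 1 list. H3K4me3 was absent from the ASF1A interval in both lists, and at NCL an interval of H3K4me3 replicate 1 alone touched it. Thus 0 of 2 shared intervals lay over H3K4me3 of both lists, where 33.7% of all 4435 shared intervals on the assembled chromosomes did.

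A part of the sequence of these intervals recurs across the genome. A 16-mer was called high-copy when it was found at least 1000 times in the genome on either strand, as in interspersed repeats. Over the whole intervals, 36.0% of the 16-mers at NCL and 43.3% at ASF1A were high-copy, and 39.5% of all shared intervals reached 25% of high-copy 16-mers. Reads from such sequence can align to many places, and the lists do not tell how they were placed; the part of this in the shared intervals was not tested.

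Among the genes for H3.3 deposition, DAXX had no DEK peak but carried H3K4me3. A replicate 1 interval of 2619 bp covered its canonical TSS. In H3K4me3 replicate 2, intervals of 1031 bp and 1209 bp lay on either side, the nearer edge 88 bp from that TSS, and the first of them covered another DAXX start. The nearest DEK replicate 2 peak ended 22723 bp from the DAXX TSS and the nearest replicate 1 peak 369464 bp away. The absence of DEK peaks was not particular to DAXX. In the 500 kb on the side of lower coordinates, DEK replicate 1 had 0 peaks and replicate 2 had 1, while the H3K4me3 lists had 16 and 13 intervals. In the next 100 kb on the other side both DEK lists had 0 peaks and both H3K4me3 lists 8, and from 100 to 500 kb the DEK lists had 3 and 72 peaks. DAXX lies near the edge of the major histocompatibility region, for which hg19 carries alternate haplotype contigs. DEK peaks on these contigs numbered 21 in replicate 1 and 63 in replicate 2, and H3K4me3 intervals 737 and 612; their part in the blank around DAXX was not tested.

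ATRX, whose protein is the remodelling partner of DAXX, is the longest of the 10 genes at 281362 bp and held the most replicate 2 peaks, 14, but no replicate 1 peak. Per length it was sparse, with 4.65 replicate 2 peaks per 100 kb, more than 29.0% of protein-coding genes. The promoter peak, chrX:77041077-77041797, covered the ATRX TSS with 20 tags (12.2 to 30.9), scored 103.4 at a fold enrichment of 9, the highest fold among the 68 peaks, and lay over H3K4me3 of both lists. The other 13 were intronic, with 12 to 27 tags each and no H3K4me3 of either list. Of the 14 peaks, 11 had at least 25% of high-copy 16-mers. The strongest of the intronic peaks, chrX:76990568-76991558, had 27 tags and a score of 162.54, with 60.7% of its 16-mers at high copy.

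HIRA, the core subunit of the H3.3 complex of active genes, held 9 replicate 2 peaks and no replicate 1 peak. A peak of 1622 bp with 50 tags (37.1 to 65.9) and a score of 171.5 covered the canonical TSS and the interval toward MRPL40, a mitochondrial ribosomal protein gene that starts 812 bp away on the opposite strand. Its middle was at -781 bp from the HIRA TSS and at -31 bp from the MRPL40 TSS. A second peak with 18 tags lay just inside HIRA at 429 bp, so that DEK tags within 1 kb of the canonical TSS came from 2 peaks with 68 tags in all. A further peak with 28 tags (18.6 to 40.5), chr22:19434741-19435793, covered both the far upstream HIRA start and the nearby start of C22orf39. These 3 peaks lay over H3K4me3 of both lists and the remaining 6 over neither.

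The CAF-1 genes differed from each other. CHAF1A, the large subunit gene, held 11 replicate 2 peaks that included the widest and the most tag-rich peak at any of the 10 genes. This domain, chr19:4441304-4454407, spanned 13104 bp with 589 tags (542 to 639), scoring 917.31 at a fold enrichment of 6.32. It ranked 7th of the replicate 2 list in width and 35th in tags. It ran from the 3′ end of CHAF1A into the neighbouring UBXN6 gene, with its middle at 258 bp from a UBXN6 TSS, and lay over H3K4me3 of neither list. The domain also covered an annotated CHAF1A start, 5604 bp from its middle. Its summit lay inside CHAF1A, 41645 bp downstream of the canonical TSS. Replicate 1 had no peak within 113950 bp of it. The 300 bases around the summit of this domain are shown on the plus strand of GRCh37 as the sequence under the widest DEK peak of the 10 genes, all in lower case because none of its bases lies in a high-copy 16-mer.
CHAF1A, chr19:4444133-4444432: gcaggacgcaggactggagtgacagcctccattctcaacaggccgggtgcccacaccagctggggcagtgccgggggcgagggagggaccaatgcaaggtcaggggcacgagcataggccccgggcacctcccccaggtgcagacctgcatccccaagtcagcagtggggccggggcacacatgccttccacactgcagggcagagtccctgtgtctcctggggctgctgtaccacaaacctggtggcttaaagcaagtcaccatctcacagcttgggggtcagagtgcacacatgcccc
A second wide peak, chr19:4429794-4433632, spanned 3839 bp inside CHAF1A with 137 tags (115 to 162) and a score of 326.28. It covered an internal CHAF1A start and an H3K4me3 interval of replicate 1 only. Domains of 3 kb or more were thus found at 1 of 10 chaperone genes, against 8.79% of all protein-coding genes. The CHAF1A promoter itself was without a DEK peak within 1 kb of the canonical TSS. The nearest peak ended 1318 bp upstream, and the most tag-rich one near it, with 60 tags and a score of 253.93, had its middle at -2898 bp and nearest to the start of SH3GL1. The window density of 17.6 replicate 2 peaks per 100 kb exceeded that of 77.3% of protein-coding genes, in a neighbourhood that was itself dense, with 27 peaks per 100 kb over the 500 kb on each side.

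CHAF1B, the subunit with WD repeats, also held 11 replicate 2 peaks in its window, with 17 to 46 tags and scores of 57.73 to 101.71. Those at -8529, -6174 and -1634 bp from its TSS lay upstream, in introns of the neighbouring MORC3 gene. The one at -6174 bp had the highest score. The others were spread along CHAF1B. None of the 11 reached the tags of the CHAF1A domains. The peak nearest its start, chr21:37758022-37759035, had 31 tags (21.1 to 44) and a score of 63.43, began 332 bp downstream of the canonical TSS, and was the only one of the 11 over H3K4me3 of both lists. Its density of 20.5 peaks per 100 kb stood beside 9.9 per 100 kb over the 500 kb on each side and exceeded that of 83.0% of protein-coding genes.

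**Figure D3:**
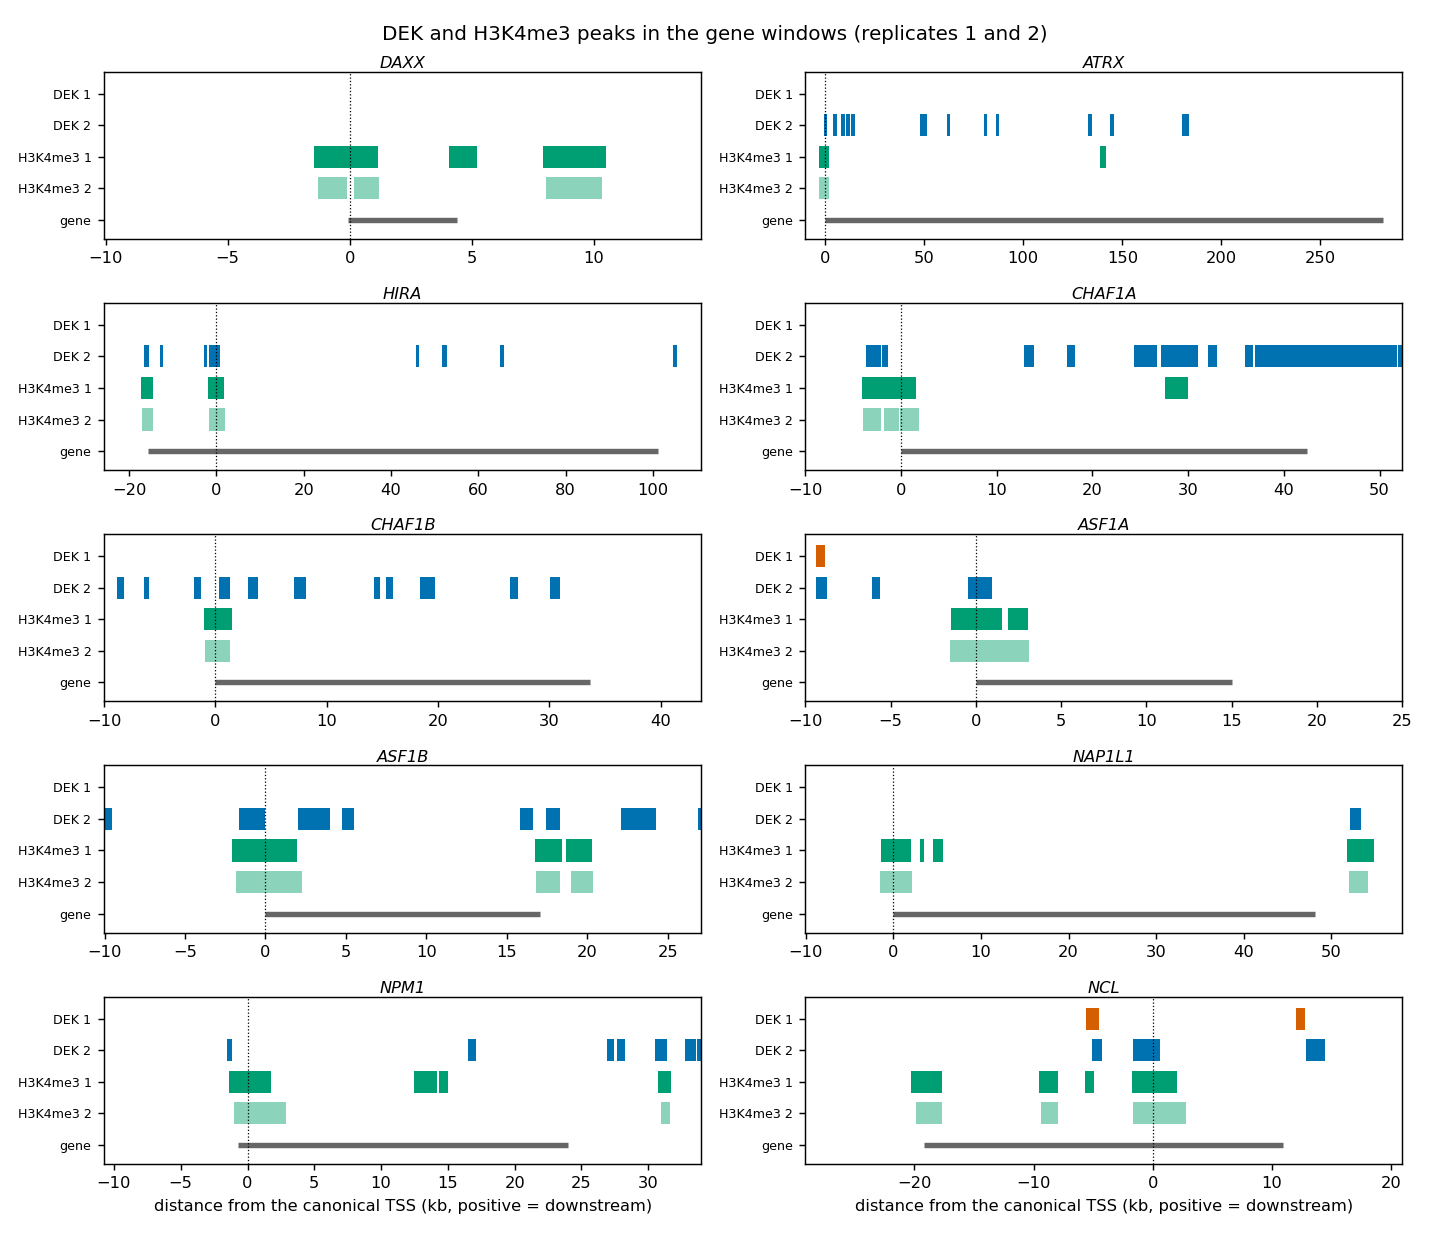
Positions of DEK and H3K4me3 peaks in the window of each gene; the horizontal axes give the distance from the canonical TSS in kb, positive downstream, each with its own scale, and the grey bar is the gene body. Very narrow intervals are drawn at a minimum width so that they stay visible. DEK 1 rows are empty except at ASF1A and NCL, the DAXX panel holds H3K4me3 only, and the CHAF1A domain fills the right end of its panel.

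ASF1A and ASF1B, the paralogous H3-H4 donors, both had replicate 2 peaks over or next to their starts. At ASF1A the peak chr6:119214870-119216279 had 59 tags (44.9 to 76.1) and a score of 117.66 and covered the canonical TSS as well as the start of MCM9, which lies 120 bp away on the opposite strand. It filled 1410 of the 2001 bp centred on the TSS, and lay over H3K4me3 of both lists. Replicate 1 had no peak there, and its nearest peak, the distal one described above, ended 8850 bp away. At ASF1B the peak chr19:14247436-14249051 had 85 tags (67.9 to 105), which at 52.6 tags per kb was the densest of the 68 peaks. It ended 35 bp short of the canonical TSS on the upstream side, covered no ASF1B start and lay over H3K4me3 of both lists. Its middle was at -818 bp from the nearest ASF1B TSS. It was nearer to a start of ADGRL1-AS1, at 243 bp, and lay in an intron of that gene. A second ASF1B peak of 1958 bp with 72 tags (56.3 to 90.7) and a score of 197.96 lay in its introns, 2986 bp from the nearest start. The highest score in the ASF1B window, 271.1 with 69 tags, belonged to a peak at the neighbouring PRKACA gene. ASF1B had the highest window density of the 10, 21.6 peaks per 100 kb, more than 84.7% of protein-coding genes, where its flanks had 18. Of the 8 peaks in this window, only 2 had an ASF1B TSS as their nearest.

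NAP1L1, the H2A-H2B chaperone, had a single replicate 2 peak, which was not its own. The peak had 47 tags (34.5 to 62.5) and a score of 81.68, and its middle was at -158 bp from the TSS of PHLDA1, 52751 bp downstream of the canonical NAP1L1 TSS. Over the NAP1L1 start itself the H3K4me3 lists held intervals of 3375 bp and 3681 bp without any DEK peak, the nearest DEK replicate 2 edge being 10197 bp away. The window density of 1.47 peaks per 100 kb exceeded that of 12.1% of protein-coding genes, and the flanks were sparse as well, with 2.4 per 100 kb.

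The nucleolar pair differed too. NPM1 held 7 replicate 2 peaks with 12 to 22 tags and none in replicate 1. The peak nearest its start, 385 bp wide with 12 tags (6.2 to 21.0), had its middle at -1344 bp from the canonical TSS and did not reach within 1 kb of it, and its nearest annotated start was that of MIR3912. The strongest NPM1-window peak, with 22 tags and a score of 121.1, lay at -819 bp from the TSS of FGF18, the next gene downstream, and 5 of the 7 peaks had an FGF18 TSS as their nearest. NCL held 4 replicate 2 and 2 replicate 1 peaks. Adjacent replicate 2 peaks of 804 bp with 21 tags (13.0 to 32.1) and of 1445 bp with 54 tags (40.6 to 70.5) covered the canonical TSS and the sequence upstream of it, together 1630 of the 2001 bp around the TSS, over H3K4me3 of both lists. The other replicate 1 peak of NCL, beyond the 3′ end with 28 tags (18.6 to 40.5) and a score of 55.23, missed a replicate 2 peak of 54 tags and a score of 211.26 by 93 bp.

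At the starts the lists disagreed. A replicate 2 peak had its middle within 1 kb of a TSS of 8 of 10 genes, the exceptions being DAXX and NAP1L1, where the share was 56.9% of all protein-coding genes and 72.3% of those with H3K4me3 over a TSS. At CHAF1A and NPM1 the start in question was an alternative one, not the canonical TSS. A replicate 2 peak covered the canonical TSS of 4 genes, ASF1A, ATRX, HIRA and NCL, against 28.4% and 42%. Replicate 1 had no peak within 1 kb of a TSS of any of the 10, against 8.45% and 13.7%, and accordingly 0 of 10 had a shared interval there, against 4.38% and 7.4%. Replicate 1 also covered 0 canonical starts, against 4.39%. A set of 10 genes cannot resolve shares of this size.

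**Figure D4:**
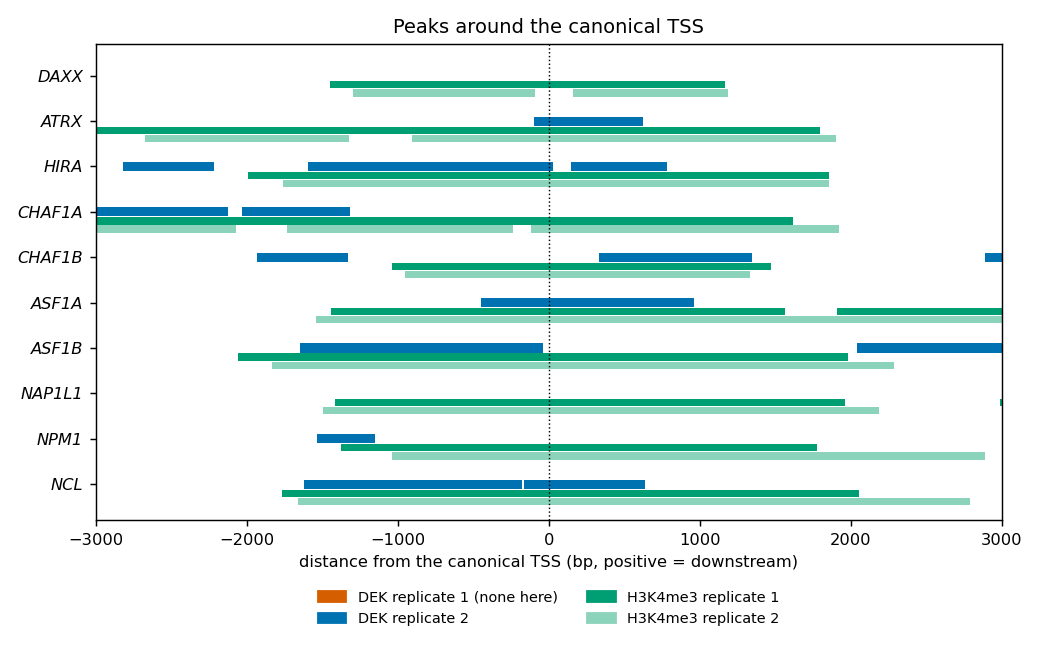
DEK and H3K4me3 peaks within 3000 bp of the canonical TSS of each gene (vertical axis), drawn to scale; the horizontal axis gives the distance in bp, positive downstream. H3K4me3 bars lie over or beside every TSS, DEK replicate 2 bars cover the TSS of ATRX, HIRA, ASF1A and NCL, and no DEK replicate 1 bar falls in the plotted range.

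Taken over the 10 windows, the 68 replicate 2 peaks resembled their list in size. Their median was 20.5 tags against 20 for the whole list, their median score 80.7 against 78.3, their median fold enrichment 4.55 against 4.58 and their median width 753 bp against 697 bp. A score of 100 or more was reached by 22 of 68 peaks (32.4%, exact binomial interval 21.5 to 44.8%), where 30.6% of the replicate 2 peaks in windows of protein-coding genes did. At least 25% of high-copy 16-mers were found in 40 of 68 (58.8%, 46.2 to 70.6%), against 50.6% in these windows and 52.7% in the whole list. A width of 3 kb or more was reached by 2 of 68, both at CHAF1A, against 1.52% and 1.28%. The peaks over H3K4me3 of both lists numbered 14 of 68 (20.6%, 11.7 to 32.1%), against 9.55% and 7.74%. Since all 10 genes carry H3K4me3 over a TSS, the closer background is the windows of the protein-coding genes that do, where the share was 12.8%, inside the binomial interval. Some of the 14 lay nearest to starts of neighbouring genes, such as SH3GL1, PHLDA1 and FGF18, and more than 1 kb from any start of the chaperone gene. The background windows take in such peaks as well. By position, 39 peaks had their middle in an intron of the gene, 5 in an exon and 24 outside the gene body, and for 34 the nearest annotated TSS belonged to the gene itself. The 3 replicate 1 peaks, with 23, 28 and 41 tags, were all below their list's median of 47, and 2 of 3 met a replicate 2 peak, against 27.4% of that list. None of the 3 lay over H3K4me3 of both lists (34.9% of replicate 1 peaks in windows of protein-coding genes, 38.2% in those of H3K4me3-marked genes and 32.9% of all did), none reached a score of 100 (24.5% of those in windows) or a width of 3 kb (3.1%), and 1, at ASF1A, had at least 25% of high-copy 16-mers (21.2% and 20.1%). From the other side, 2 of 68 replicate 2 peaks met a replicate 1 peak, against 2.9%. Neighbouring peaks of a gene share their library and chromatin, so the binomial intervals cover counting error only.

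**Figure D5:**
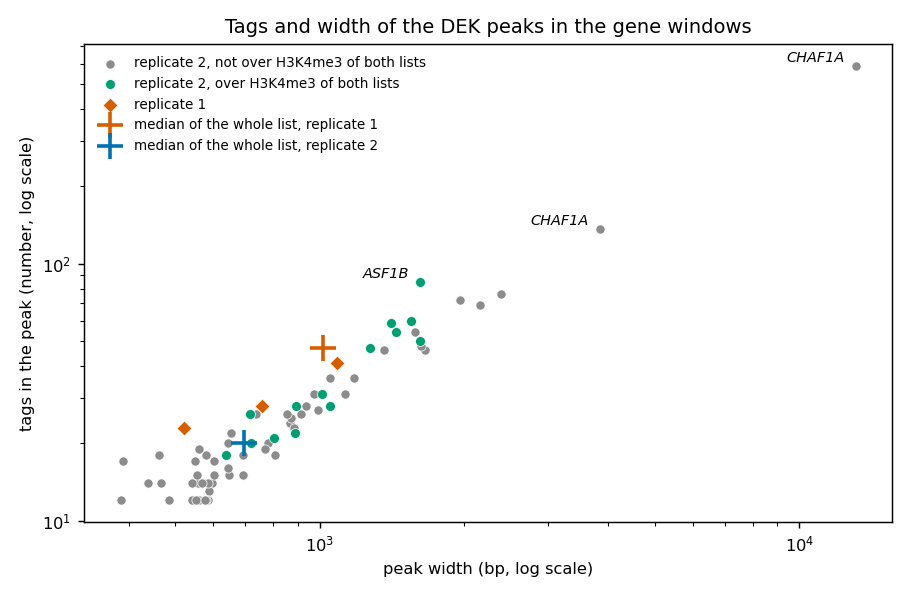
Tags per peak (vertical axis, log scale) against peak width in bp (horizontal axis, log scale) for the 68 replicate 2 peaks (circles, green over H3K4me3 of both lists) and the 3 replicate 1 peaks (diamonds); crosses mark the medians of the whole lists. CHAF1A peaks of 137 and 589 tags stand apart at the upper right, ASF1B has the highest H3K4me3-marked peak at 85 tags, and the replicate 1 points lie below the replicate 1 cross.

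In density, the windows of the 10 genes held 8.36 replicate 2 peaks per 100 kb, those of all protein-coding genes 8.18 and the genome 4.92. The medians over genes had the other order, 8.27 for the 10 genes and 9.20 for all protein-coding genes. In replicate 1 the pooled densities were 0.369, 0.668 and 0.482 peaks per 100 kb, the first resting on 3 peaks.

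RefSeq promoter sequences, from 250 bases before to 50 after the start, were at hand for 8 of the 10 genes in 9 entries, DAXX and ATRX having none, and each matched GRCh37 exactly once. The promoters that replicate 2 peaks covered in whole or in part are shown on the strand of the gene, followed by NAP1L1 as an example of the H3K4me3-marked promoters without a called DEK peak. Capitals mark the motif letters searched on both strands: GGGCGG (GC box, SP1), CACGTG (E-box, USF1), GAGGAAG (PU.1), CCGGAAG (ETS), TGTGGT (RUNX1), CCAAT (NF-Y), TTTGGCGC and TTTCGCGC (E2F) and AAGATGG (YY1), none of which contains another.
ASF1A, chr6:119215066-119215365: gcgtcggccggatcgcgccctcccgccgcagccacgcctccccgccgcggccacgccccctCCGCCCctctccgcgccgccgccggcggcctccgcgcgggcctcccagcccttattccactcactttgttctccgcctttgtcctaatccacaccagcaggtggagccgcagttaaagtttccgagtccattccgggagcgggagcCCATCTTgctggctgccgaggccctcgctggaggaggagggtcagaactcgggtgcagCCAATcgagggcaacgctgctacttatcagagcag
ASF1B, chr19:14247352-14247651: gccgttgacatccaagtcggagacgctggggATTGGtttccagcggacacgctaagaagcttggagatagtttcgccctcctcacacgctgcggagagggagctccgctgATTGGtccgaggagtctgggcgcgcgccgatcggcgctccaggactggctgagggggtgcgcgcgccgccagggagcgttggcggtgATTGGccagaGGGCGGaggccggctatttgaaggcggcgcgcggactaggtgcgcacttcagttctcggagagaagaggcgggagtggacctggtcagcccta
NCL, chr2:232329146-232329445: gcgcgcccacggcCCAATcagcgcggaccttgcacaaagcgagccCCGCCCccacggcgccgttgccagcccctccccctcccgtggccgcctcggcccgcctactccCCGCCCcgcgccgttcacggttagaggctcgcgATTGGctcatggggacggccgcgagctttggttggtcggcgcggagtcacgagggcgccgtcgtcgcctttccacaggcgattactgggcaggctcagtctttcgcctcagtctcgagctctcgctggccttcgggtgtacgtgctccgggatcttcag
HIRA, chr22:19419207-19419506: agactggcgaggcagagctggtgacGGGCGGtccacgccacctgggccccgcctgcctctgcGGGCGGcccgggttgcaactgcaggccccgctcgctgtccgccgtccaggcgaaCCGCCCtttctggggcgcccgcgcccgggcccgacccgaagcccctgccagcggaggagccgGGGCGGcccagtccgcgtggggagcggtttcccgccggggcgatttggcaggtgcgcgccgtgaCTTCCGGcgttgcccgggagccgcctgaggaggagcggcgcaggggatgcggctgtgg
NAP1L1, chr12:76478416-76478715: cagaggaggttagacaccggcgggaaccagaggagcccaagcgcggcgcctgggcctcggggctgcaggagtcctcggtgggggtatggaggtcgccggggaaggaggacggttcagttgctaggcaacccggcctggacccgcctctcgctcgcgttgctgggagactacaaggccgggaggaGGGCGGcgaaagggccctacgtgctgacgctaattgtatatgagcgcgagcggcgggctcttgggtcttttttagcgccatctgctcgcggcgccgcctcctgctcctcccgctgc
The replicate 2 peaks covered 300 of the 300 bases at ASF1A, 216 at ASF1B, 290 at NCL and 280 at HIRA, and 0 at NAP1L1, CHAF1A, CHAF1B and NPM1, while H3K4me3 of both lists covered all 300 except at CHAF1A, where replicate 2 covered 185. GGGCGG was present in 7 of the 9 entries, where 45.0% of 35116 promoters hold it, and CCAAT in 5, against 34.6%. CACGTG (7.26% of promoters) and GAGGAAG (13.6%) each occurred in CHAF1A alone, CCGGAAG (10.3%) in HIRA and AAGATGG (5.84%) in ASF1A. TGTGGT (13.1%), TTTGGCGC (0.652%) and TTTCGCGC (0.515%) were in none of the 9. The G+C content ran from 47.7% at the upstream NPM1 start to 77% at HIRA, with a median of 58.7% over all promoters. Promoter sequences with and without a called DEK peak both held GGGCGG, and the letters of a motif do not show that its factor is bound. A sequence without a peak is not shown to lack DEK, and at CHAF1B a replicate 2 peak began 332 bp downstream of the canonical TSS.

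A list of 27 other genes of histone chaperones and their partners, such as the FACT subunits SUPT16H and SSRP1 and the H3-H4 chaperone NASP, was described in the same way. Their windows held 12.9 replicate 2 peaks per 100 kb, against 8.36 in the windows of the first 10 genes and 8.18 in those of all protein-coding genes. The medians over genes were 11.8, 8.27 and 9.20. The pooled 8.36 is weighted by length, and the sparse ATRX window made up 301 of its 814 kb. These differences in density were not tested. A replicate 2 peak lay within 1 kb of a TSS at 19 of 27 and over the canonical TSS at 11, and H3K4me3 of both lists covered a TSS at 24. The shares over all protein-coding genes were 56.9%, 28.4% and 55.2%, and the first 2 rose to 72.3% and 42% among H3K4me3-marked genes. Replicate 1 peaks were found at 7 of 27 (25.9%), replicate 2 peaks at 25 (92.6%) and shared intervals at 4 (14.8%), ANP32E, CABIN1, DNAJC9 and UBN2. Over all protein-coding genes these shares were 32.6%, 90.9% and 15.7%, and the 27 genes were near or below them. Among H3K4me3-marked genes the shares were 41.2%, 97.3% and 21.2%, and the 27 genes were below all of these, which was not tested. At 2 of these, DNAJC9 and UBN2, an interval fell within 1 kb of a start, which was seen at 0 of the first 10 genes, a difference that 10 genes cannot resolve at the 4.38% of all protein-coding genes. At DNAJC9, whose protein is an H3-H4 co-chaperone, the interval chr10:75006547-75007562 had its middle at -41 bp and came from peaks of 110 and 49 tags. At UBN2, a partner of HIRA, the interval chr7:138915221-138916290 lay at -228 bp with 96 and 51 tags. All 6 shared intervals of the longer list lay over H3K4me3 of both lists, against 33.7% of all shared intervals. None reached 25% of high-copy 16-mers, where 39.5% of all shared intervals and both those of NCL and ASF1A did. The 6 were not all separate or at the genes' own starts. Both CABIN1 intervals came from the same replicate 1 peak of 89 tags. The other DNAJC9 interval lay 231 bp from an MRPS16 start, and the ANP32E interval 13818 bp from the nearest ANP32E start. Replicate 1 peaks behind the 6 intervals had 89 to 128 tags, above the 23 and 41 tags at ASF1A and NCL. The difference between the lists of genes rests on 4 and 2 genes and was not tested.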

How the data were processed

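Peak lists of 2 independent DEK precipitations and of 2 H3K4me3 precipitations from U937 cells were used, and the non-precipitated chromatin was not analysed here. In the DEK experiments, bases were converted with Illumina OLB 1.9, reads were aligned to hg19 with Bowtie 2, and the authors called peaks with MACS 1.4.1 for every precipitation on its own, at default settings and against non-precipitated chromatin. For H3K4me3 the submitters' processing notes name Bowtie 2, MACS 1.4.1 and hg19, and the deposited intervals carry a start and an end only. Each deposited DEK peak has a raw count of tags. Its deposited score is the negative log10 of the MACS p-value multiplied by 10. The deposited fold enrichment is a ratio to the local MACS background, and the false discovery rate was deposited as a percent.

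Peaks overlapping by at least 1 bp counted as shared, and distances ran from the middle of a peak to annotated TSSs of GENCODE release 44 on GRCh37, and the authors may have used another annotation. A 16-mer was high-copy when it occurred at least 1000 times in GRCh37 on both strands together. No test was run: counts stand beside the share over all protein-coding genes, tag counts have exact Poisson and shares exact binomial 95% intervals, and both cover counting error only. The study states a minimum of reads per sample, the depth of each library is not given in the sources used here beyond its tags in peaks, and no error between the 2 replicates was estimated. The members and lists were chosen with earlier results of these data known. Genes named are the 10 members, genes whose TSS is nearest to a described peak, other histone chaperone genes with a shared interval, and a few marker and example genes named for orientation. The analysis used bedtools 2.31.1, samtools 1.23.1, Python 3.11.15 with pandas 2.3.3, NumPy 2.4.6, Numba 0.67.0, SciPy 1.17.1 and Matplotlib 3.10.9, and 22 of 22 checks on simulated intervals passed. Alternatives were other windows, overlaps, scores, list lengths, TSS definitions and each replicate alone. The sequences of the shared intervals and markers of other lineages are not reported here.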

Additional observations from a re-analysis of the deposited data

How the results depend on the processing

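Of 27 alternatives over 7 results, 15 left the value the same or changed it by at most 1.5 times, and 12 moved it by more. Some of the 15 could not have moved the value. These were stricter limits on a count of 0, and either H3K4me3 list alone where all 10 genes already counted. Among the smaller changes, the genes with peaks of both DEK lists went from 2 to 3 with 20 kb on each side. The genes with a shared interval also went from 2 to 3 with that window. The genes with H3K4me3 over a TSS in both lists became 9 when only the outermost start of each gene was counted. The 2 genes with peaks of both DEK lists became 1 with the gene body alone and 0 with a score of at least 100 in both lists. The 2 genes with a shared interval became 1 with the gene body alone, 0 with a score of at least 100, 0 with lists of equal length, and 0 when intervals with at least 25% of high-copy 16-mers were left out. With a single list used in turn, the count ran from 2 without replicate 2 to 9 without replicate 1. The 2 shared intervals became 4 with 20 kb on each side, 1 with the gene body alone, 0 with a score of at least 100 and 0 without high-copy intervals. The count of 0 genes with a shared interval within 1 kb of a TSS stayed at 0 with a distance of 2 kb. It was also 0 with stricter overlaps, scores or starts, which only remove intervals or starts and so could not raise it. With a single list in turn, this count ran from 0 without replicate 2 to 8 without replicate 1. The high-copy alternatives and the score limit on peaks of both lists were chosen after seeing the data. No paired analysis was possible because the results come from no test. The shorter list of replicate 1 and its false discovery rates of 100% limit every statement on sharing, and a gene without a replicate 1 peak is not shown to lack DEK.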
